A study of Mus musculus with 4 samples.

Results

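The genes described are 40 components of innate microbial sensing, taken as every probe of the arrays, control probes aside, that the array annotation assigns to a fixed list of gene names. They comprise 11 receptors (the Toll-like receptors Tlr1 to Tlr9 and the co-receptor genes Cd14 and Ly96), 4 cytosolic sensors, 15 adaptors and signalling proteins, 2 interferon regulatory factors, 5 NF-κB subunits and 3 regulators of NF-κB. The array annotation held 27376 gene names in all, and the 40 genes had 61 probes among 41174. The samples are 2 of CD8αβ+ intraepithelial lymphocytes (IELs) from small intestine and 2 of CD8αβ+ splenocytes (SPLs) from spleen. The mice of both groups were wild-type males aged 8 to 12 weeks by the sample labels, without further treatment in the labels. According to the methods, cells positive for CD45, CD3, CD8β, CD8α and TCRβ were sorted and each sample pooled several mice, so that no sample reports on 1 animal. Each sample was hybridised to its own Agilent 1-color whole mouse genome array.

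Toll-like receptors and cytosolic sensors bind bacterial or viral components and recruit adaptor proteins, among which Myd88 serves most Toll-like receptors. The adaptors assemble Irak and Traf proteins that activate kinases, which free NF-κB subunits from inhibitory proteins and switch on interferon regulatory factors. Receptor genes of this kind are best known from macrophages, dendritic cells and B cells, whereas the NF-κB arm is also used by the T cell receptor, so that T cells carry most of its parts.

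Values are given as a level, the log2 signal of a probe minus the 75th percentile of its own array, so that a level of 0 is the brightness of the probe at that percentile. A level was compared between arrays for the same probe, and not between probes. Slide 1 carried IEL replicate 1 with SPL replicate 2, and slide 2 carried the other two samples, IEL replicate 2 with SPL replicate 1. Over the 25092 probes well above background on every array, IEL replicate 2 correlated more closely with SPL replicate 1 (r = 0.993) than with IEL replicate 1 (r = 0.954), although genes are not independent replicates. The sample labels were followed for both, and whether IEL replicate 2 carries the right label or holds spleen-like RNA was not tested, which bears on every IEL mean and on every count of groups that do not overlap. All 10 CD8 T cell markers (Cd3e, Cd8a, Cd8b1 and others) were well above background on every array. Markers of other cells differed between the IEL arrays: the summed linear level of 8 Paneth cell markers was 433 in IEL replicate 1 and 10.9 in IEL replicate 2, against 7.73 and 5.31 in the SPL samples, and that of 10 B cell markers was 7.86 in IEL replicate 1 against 53.6, 72.5 and 52.7 in IEL replicate 2 and SPL replicates 1 and 2. Results are therefore given within each slide as well as over all 4 arrays.

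The 11 receptors and the 29 other genes differed in how many were detected. A gene was counted as detected where the scanner software marked at least 1 of its probes as well above background, a mark carried by 63.6% and 67.6% of all probes in IEL replicates 1 and 2 and by 68.3% and 69.6% in SPL replicates 1 and 2. All 29 genes other than receptors were detected on all 4 arrays, beside 60.9% of all probes. The shares are of single probes, whereas a gene counted with any 1 of its probes. Of the 11 receptors, 5 were detected in IEL replicate 1, 8 in IEL replicate 2, 9 in SPL replicate 1 and 8 in SPL replicate 2. By the more lenient mark of a positive signal significantly over background, the receptor counts were 8, 10, 10 and 10. Tlr3, which binds double-stranded RNA, and Tlr8, a receptor for single-stranded RNA, were well above background on no array. Tlr4, the lipopolysaccharide receptor, was well above background only in SPL replicate 1, at a level of -5.85 against -7.57, -6.34 and -7.35 in IEL replicate 1, IEL replicate 2 and SPL replicate 2. These 3 genes were not tested, which left 37 genes with a tested probe.

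**Figure D1:**
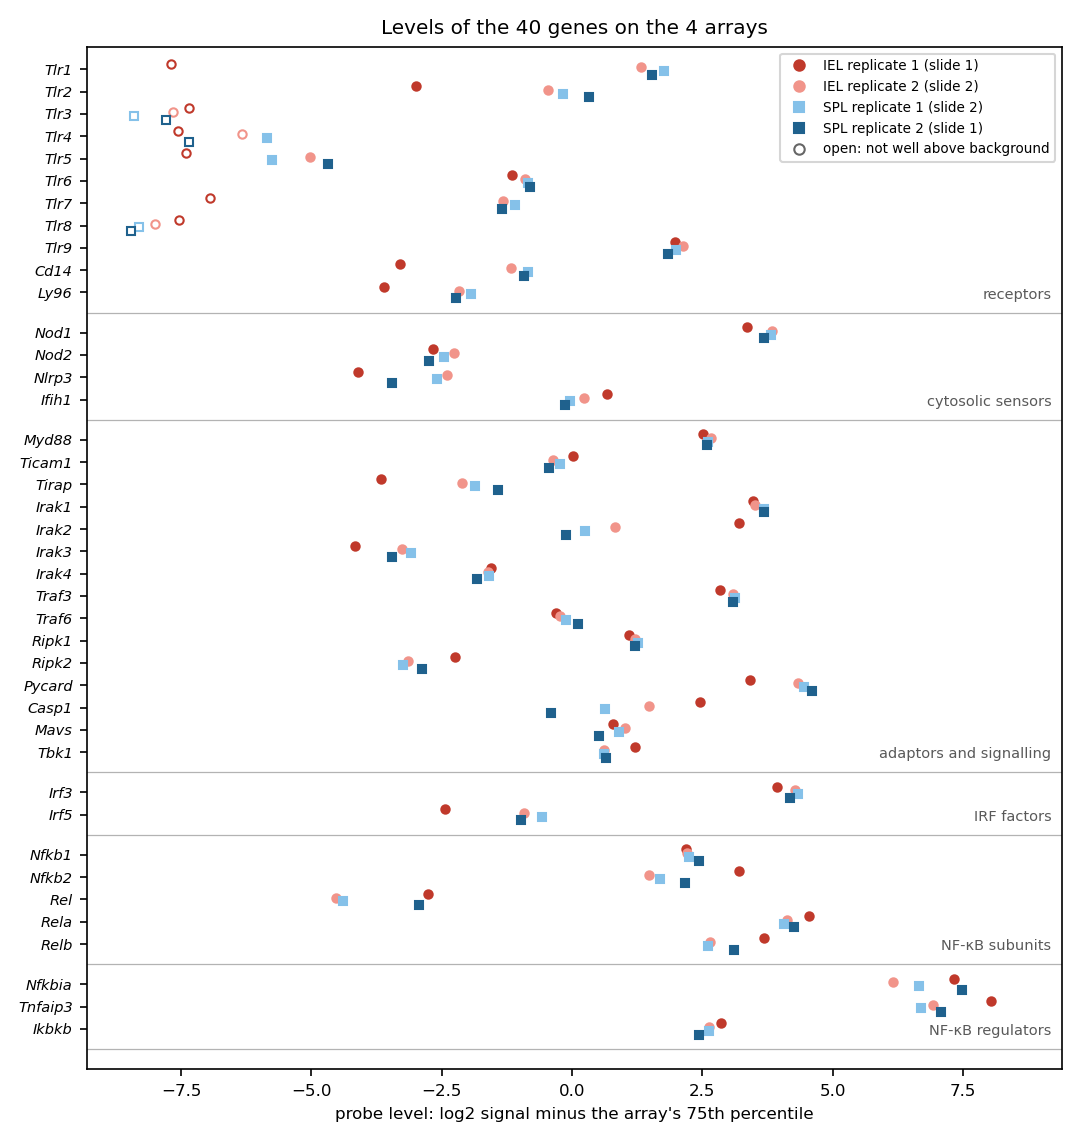
Level of each of the 40 genes (horizontal axis, log2 signal of its representative probe minus the 75th percentile of the array) in the 4 samples, with genes ordered by role from top to bottom and open symbols for signals not well above background. Open symbols are confined to Toll-like receptors, and IEL replicate 1 lies far to the left for Tlr1, Tlr2 and Tlr7.

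No gene of the 40 passed the limma test with Benjamini-Hochberg adjustment, and neither did any of the 27937 probes tested (0% in each direction, smallest adjusted p = 0.634). At an unadjusted p under 0.05, limma marked 1 gene of the 37 as higher in IELs (4.64% of all probes were) and 0 as lower (1.1% of all probes). The unpaired t-test that the methods name marked 0 of them as higher and 1 as lower before adjustment, beside 470 and 349 of all tested probes. After adjustment it marked no probe. An exact permutation test of 2 against 2 samples cannot give a two-sided p below 0.333. Both IEL arrays lay above both SPL arrays for 4 of the 37 genes, Ifih1, Irak2, Casp1 and Ikbkb, against 24.4% of all tested probes. Both IEL arrays lay below both SPL arrays for 9 genes, namely Tlr1, Tlr2, Tlr6, Cd14, Tirap, Irak1, Traf6, Pycard and Nfkb1, against 24.6% of all probes. The mean difference was above 0 for 16 of the 37 genes, against 49.9% of all tested probes. The median log2 difference between IELs and SPLs was -0.14 over the 37 genes, -1.17 over the 8 tested receptors and 0.024 over the 29 other genes, beside -0.00068 over all tested probes.

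Tlr1 encodes the partner of Tlr2 for bacterial lipopeptides and had the largest mean difference of the 37 tested genes. Its level was -7.69 in IEL replicate 1, where the probe was not well above background, 1.33 in IEL replicate 2, and 1.76 and 1.53 in SPL replicates 1 and 2. IEL replicate 1 thus stood apart from the other 3 samples, which lay within 0.43 of each other. The mean log2 difference was -4.82 with a standard error of 3.06 (limma, adjusted p = 0.634), and the within-slide differences were -9.22 for slide 1 and -0.43 for slide 2. The dimmest signal well above background in IEL replicate 1 lay at -5.78. Measured against it, Tlr1 was 159-fold lower in the IEL sample of slide 1. This is no strict lower limit, since brighter probes, such as that of the macrophage marker Vcam1 at -5.21, were also not well above background there.

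Tlr6, the paralog of Tlr1 and the other partner of Tlr2, differed little. Its level was -1.15 and -0.90 in IEL replicates 1 and 2 and -0.85 and -0.80 in SPL replicates 1 and 2, a mean difference of -0.20 with a standard error of 0.24 (limma, adjusted p = 0.743). On mm9, the Tlr1 probe lies at chr5:65316115-65316174 and the Tlr6 probe at chr5:65344365-65344424, both on the minus strand. The first 30 of the 60 bases of each probe are shown because the genes are paralogs and neighbours in the genome, in lower case throughout since the whole probes share no run longer than 5 bases:
Tlr1 probe: caagcatggacttttttgggcaaacctaag
Tlr6 probe: ttatgaagttagccttagtcaatgaggatg
In the best alignment without gaps, the probes matched at 22 positions.

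Tlr2, the shared partner of both, had levels of -2.99 and -0.46 in IEL replicates 1 and 2 and of -0.18 and 0.33 in SPL replicates 1 and 2 (probe at chr3:83640344-83640403, mm9). Both IEL values lay below both SPL values. The mean difference was -1.80 with a standard error of 0.90 (limma, adjusted p = 0.634), or -3.32 within slide 1 and -0.29 within slide 2. Tlr7, which binds single-stranded RNA in endosomes, had levels of -6.94 and -1.33 in IEL replicates 1 and 2 and of -1.09 and -1.35 in SPL replicates 1 and 2. It was not well above background in IEL replicate 1, whereas IEL replicate 2 lay between the SPL samples, so that the groups overlapped. On slide 1, Tlr7 was 21.6-fold lower in the IEL sample when measured against the same dimmest signal, and on slide 2 its log2 difference was -0.25. Tlr5, the flagellin receptor, had low levels of -7.41 and -5.03 in IEL replicates 1 and 2 and of -5.76 and -4.68 in SPL replicates 1 and 2, again not well above background in IEL replicate 1 and with overlapping groups. Tlr9, which binds unmethylated CpG DNA, was nearly level, with 1.97 and 2.13 in IEL replicates 1 and 2 and 2.00 and 1.84 in SPL replicates 1 and 2.

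Both co-receptors were lowest in IEL replicate 1. Cd14 hands lipopolysaccharide to the receptor complex, and its level was -3.31 and -1.17 in IEL replicates 1 and 2 and -0.85 and -0.92 in SPL replicates 1 and 2. The mean difference was -1.35 with a standard error of 0.76 (limma, adjusted p = 0.634), or -2.38 within slide 1 and -0.31 within slide 2. Ly96, which encodes MD-2, the lipopolysaccharide-binding subunit that pairs with Tlr4, had levels of -3.60 and -2.16 in IEL replicates 1 and 2 and of -1.94 and -2.23 in SPL replicates 1 and 2, with IEL replicate 2 between the SPL samples. Tlr1, Tlr5 and Tlr7 were not well above background in IEL replicate 1 and were set there at its dimmest signal with that mark. Over the 8 tested receptors, the median log2 difference was then -1.88 on slide 1 (-2.56 with their measured signals), and -0.23 on slide 2. Over all 4 arrays it was -1.17, and it was -0.71 and -0.49 under the normexp background corrections, fitted on all spots or without spots far below their local background, where the median of all probes was -0.38 and 0.15. Without IEL replicate 1 it was -0.097, and without IEL replicate 2 it was -2.30.

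**Figure D2:**
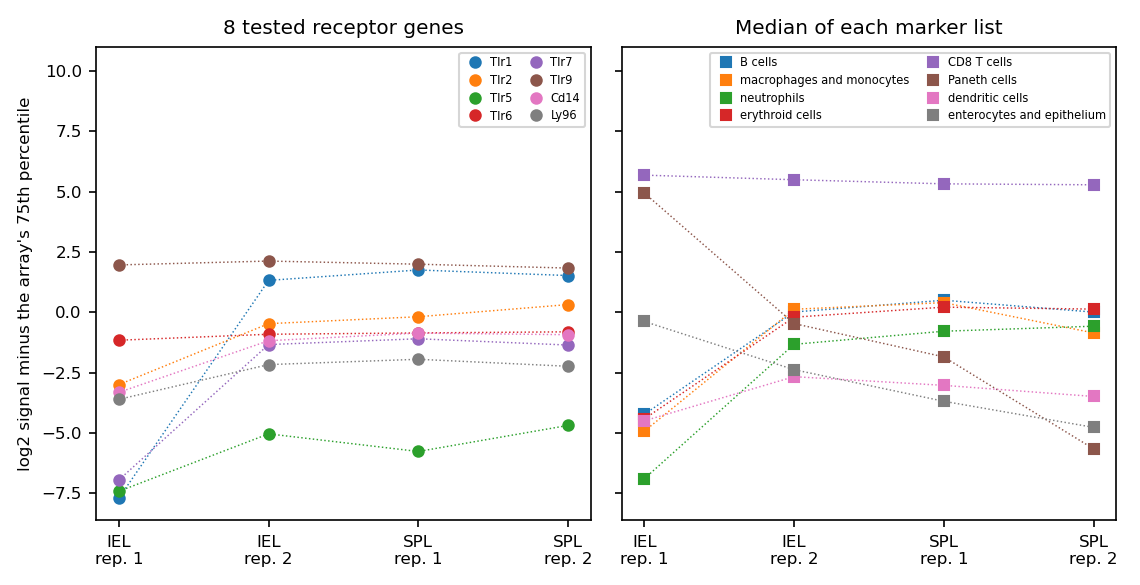
Levels (log2 signal minus the 75th percentile of the array) of the 8 tested receptor genes in each sample, at left, and the median level of 8 lists of cell type markers, at right, on the same vertical axis, with dotted lines joining values of 1 gene or list only to guide the eye. IEL replicate 1 has the lowest value for 7 of the receptors and for the B cell, macrophage, neutrophil and erythroid lists, and also for the median of the dendritic cell list, while CD8 T cell markers are nearly level and Paneth cell and enterocyte markers are highest there.

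Most markers of B cells, macrophages and neutrophils were lowest in the sample where the receptors were, and those of dendritic cells were mixed. All 10 B cell markers, 10 of 12 macrophage and monocyte markers and 7 of 8 neutrophil markers were lowest in IEL replicate 1. The summed linear level of the neutrophil markers was 0.245 in IEL replicate 1 and 36.3, 45.1 and 50.8 in IEL replicate 2 and SPL replicates 1 and 2. That of the macrophage and monocyte markers was 48.4 and 39 in the IEL samples and 46.6 and 42.7 in the SPL samples, and without Lyz2, whose probe supplied most of the sum, it was 1.08 and 11 against 14.3 and 5.77. Of the macrophage list, 7 of 12 markers were well above background in IEL replicate 1 and all 12 on every other array, and of the neutrophil list, 2 of 8 against 7 of 8. Of 8 dendritic cell markers, 4 were lowest and 2 highest in IEL replicate 1, 4 were well above background there, and their summed level was 9.59 and 4.81 in the IEL samples and 3.54 and 1.98 in the SPL samples, most of it from Itgax, which encodes CD11c. The part of these cells in the receptor differences was not tested, and in bulk RNA fewer cells of a type and less RNA per cell cannot be told apart.

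The 4 cytosolic sensors were well above background on every array and differed by at most 0.54 in their mean. Ifih1 encodes MDA5, a sensor of long double-stranded RNA, and had levels of 0.67 and 0.23 in IEL replicates 1 and 2 and of -0.036 and -0.13 in SPL replicates 1 and 2. Both IEL samples lay above both SPL samples, with a mean difference of 0.54 and a standard error of 0.27 (limma, adjusted p = 0.634). The other Ifih1 probe also had a mean difference of 0.54, but its groups overlapped and its difference on slide 2 was -0.053. Nod1 and Nod2, which bind peptidoglycan fragments, had mean differences of -0.14 and 0.14, with overlapping groups. Nlrp3, the sensor of an inflammasome, had levels of -4.10 and -2.39 in IEL replicates 1 and 2 and of -2.59 and -3.46 in SPL replicates 1 and 2, so that the samples of a group differed more than the groups did.

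Among the adaptors and signalling genes, the central adaptor was level while the inflammasome caspase and Irak2 were higher in both IEL samples than in both SPL samples. Myd88 had levels of 2.51 and 2.67 in IEL replicates 1 and 2 and of 2.61 and 2.59 in SPL replicates 1 and 2 (probe at chr9:119245322-119245381, mm9). The mean difference was -0.0097 with a standard error of 0.23 (limma, adjusted p = 0.99), and it was 0.35 under the first of the normexp corrections. The kinase Irak1 had a mean difference of -0.19, the adaptor Ticam1 of 0.16 and the ubiquitin ligase Traf3 of -0.14. For the kinase Irak4 it was 0.12, and its other probe differed by 0.40 with both IEL samples higher. Traf6, also a ubiquitin ligase, differed by -0.27, and its other probes by -0.61 and -0.98, all 3 with both IEL samples below both SPL samples. The probe with -0.98 was not well above background in either IEL sample and passed the filter only through the SPL samples. Its order therefore adds no support to the other 2 probes.

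Casp1 encodes the caspase that inflammasomes activate and was the gene that limma marked before adjustment (adjusted p = 0.634). Its level was 2.46 and 1.48 in IEL replicates 1 and 2 and 0.64 and -0.40 in SPL replicates 1 and 2. Both IEL samples lay above both SPL samples, and the mean difference was 1.85 with a standard error of 0.53, with 2.86 on slide 1 and 0.84 on slide 2. Irak2, a kinase of the Irak family that sustains signalling, had levels of 3.20 and 0.82 in IEL replicates 1 and 2 and of 0.25 and -0.12 in SPL replicates 1 and 2 (probe at chr6:113644488-113644547, mm9). The mean difference was 1.95 with a standard error of 0.85 (limma, adjusted p = 0.634), or 3.32 within slide 1 and 0.57 within slide 2. The summed linear level of 12 epithelial markers was 25.8 and 5.04 in IEL replicates 1 and 2 and 2 and 0.47 in SPL replicates 1 and 2. Of these markers, 10 were highest in IEL replicate 1. Casp1 and Irak2 had the sample order of this sum, which was also the order of the summed Paneth cell markers. The part of epithelial RNA in these differences was not tested.

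Tirap and Pycard went the other way. Tirap, the adaptor that brings Myd88 to Tlr2 and Tlr4, had levels of -3.67 and -2.11 in IEL replicates 1 and 2 and of -1.87 and -1.42 in SPL replicates 1 and 2 (probe at chr9:34994936-34994995, mm9). Both IEL values lay below both SPL values, with a mean difference of -1.25 and a standard error of 0.59 (limma, adjusted p = 0.634), and the other Tirap probe differed by -1.17. The difference was -2.25 on slide 1 and -0.24 on slide 2. Pycard encodes ASC, the scaffold that joins inflammasome sensors to Casp1, and its level was 3.41 and 4.34 in IEL replicates 1 and 2 and 4.45 and 4.61 in SPL replicates 1 and 2. Its mean difference of -0.66 was opposite in sign to that of Casp1. The other Pycard probe differed by -0.51, with overlapping groups. The remaining adaptors, Irak3, Ripk1, Ripk2, Mavs and Tbk1, had overlapping groups and mean differences between -0.44 and 0.36 at the probe that represented each gene. The other Tbk1 probe differed by 0.49, with both IEL samples higher.

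**Figure D3:**
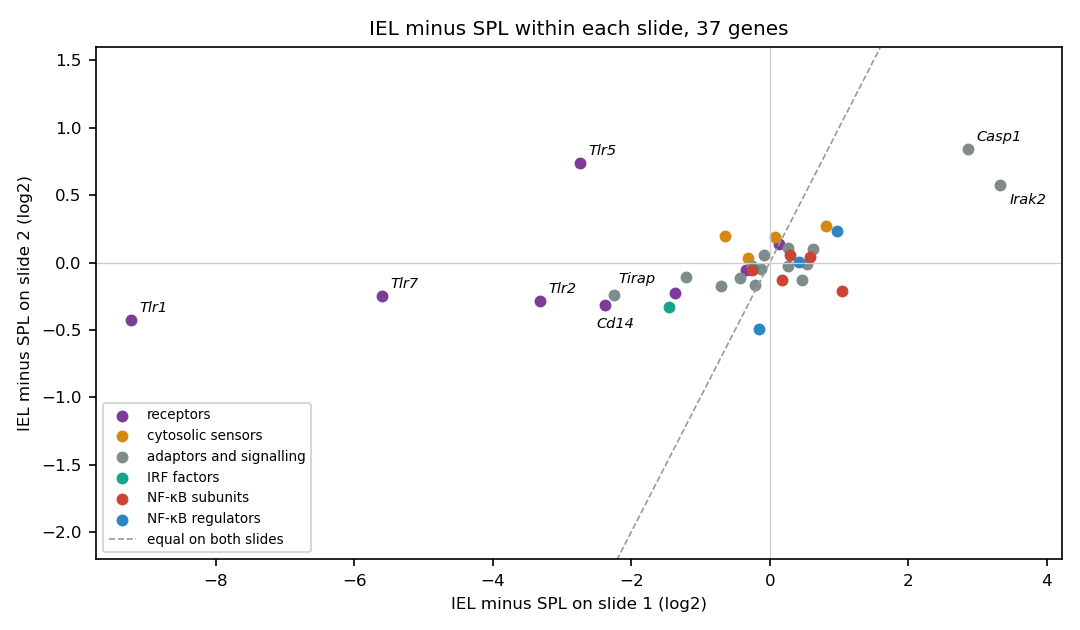
Difference between the IEL and the SPL sample of the same slide for the 37 tested genes, slide 1 on the horizontal and slide 2 on the vertical axis, both in log2 units and drawn to different scales, with colours for roles and a dashed line where both slides are equal. Receptors spread to the left on slide 1, down to -9.22 for Tlr1, while all 37 genes stay within 1 log2 unit of 0 on slide 2.

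The difference between IELs and SPLs was larger in size on slide 1 than on slide 2 for 34 of the 37 genes. On slide 1, 3 of the 37 genes were at least 2-fold higher in the IEL sample and 9 at least 2-fold lower, against 11.8% and 13.7% of all tested probes. On slide 2, no gene of the 37 differed by 2-fold, against 2.47% of all probes higher and 0.73% lower. Without IEL replicate 2, which leaves IEL replicate 1 as a lone sample assumed to vary like the SPL samples, limma called 3 of the 37 genes higher (Irak2, Casp1 and Nfkb2) and 9 lower (Tlr1, Tlr2, Tlr5, Tlr7, Cd14, Ly96, Tirap, Pycard and Irf5), beside 8.56% of all probes higher and 11% lower. Tlr1, Tlr5 and Tlr7 were not well above background in IEL replicate 1, the lone IEL sample of that fit. Their differences there rest on signals near the floor. Without IEL replicate 1, or without either SPL sample, 0 of the 37 genes were called.

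The interferon regulatory factors had overlapping groups. Irf3, activated downstream of Tlr3 and Mavs, had levels between 3.93 and 4.33 on the 4 arrays, with a mean difference of -0.15. Irf5, which acts below Myd88 in myeloid and B cells, had levels of -2.43 and -0.91 in IEL replicates 1 and 2 and of -0.59 and -0.97 in SPL replicates 1 and 2. IEL replicate 1 stood apart from the other 3 samples, as it did for Tlr1 and Tlr7.

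The mean log2 differences of the 8 NF-κB genes between IELs and SPLs lay between -0.33 (Nfkbia) and 0.60 (Tnfaip3). Those of Nfkb2 and Relb were 0.42 and 0.31. Standard errors were as large as 0.65 (Nfkb2) and 0.80 (Rel), so these values do not show that the genes were level. Within slide 1 the median difference was 0.35, with 6 genes higher in the IEL sample and 2 lower. Nfkb2 differed by 1.05 there, Tnfaip3 by 0.97 and Relb by 0.58. Within slide 2 the median was -0.025, with 4 genes higher and 4 lower. Over the 8 subunits and regulators the median log2 difference was 0.19, with 0 genes called by limma. For 1 of them (Ikbkb) both IEL samples lay above both SPL samples, and for 1 (Nfkb1) both lay below, against 24.4% and 24.6% of all tested probes. Nfkb1, which encodes p105 and p50, had levels of 2.19 and 2.20 in IEL replicates 1 and 2 and of 2.25 and 2.44 in SPL replicates 1 and 2 (a mean difference of -0.15, standard error 0.23, limma adjusted p = 0.796). Its 4 probes all had mean differences below 0, but the groups overlapped for its other probes. Under the first normexp correction the probe given here had a difference of 0.21. Rela, the p65 subunit, had levels of 4.54 and 4.13 in IEL replicates 1 and 2 and of 4.07 and 4.25 in SPL replicates 1 and 2 (a mean difference of 0.17, standard error 0.27, limma adjusted p = 0.802). Nfkbia encodes IκBα, the inhibitor that holds NF-κB in the cytoplasm, and had levels of 7.33 and 6.16 in IEL replicates 1 and 2 and of 6.65 and 7.49 in SPL replicates 1 and 2 (a mean difference of -0.33, standard error 0.54, limma adjusted p = 0.811). For Rela and Nfkbia the samples of a group differed more than the groups did.

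For 6 of these 8 genes the slides differed more than the groups did. Both samples of slide 1 lay above both samples of slide 2 for the same 6, namely Nfkb2, Rel, Rela, Relb, Nfkbia and Tnfaip3, against 20.7% of all tested probes. The opposite order held for 0 of the 8, against 16.3% of all probes. Rel, the c-Rel subunit, had levels of -2.77 and -2.94 in the IEL and the SPL sample of slide 1 and of -4.52 and -4.39 in those of slide 2. Slide 1 exceeded slide 2 by 1.75 in IELs and by 1.45 in SPLs, a mean of 1.6 that 0.294% of the tested probes exceeded. Tnfaip3, which encodes A20, an inhibitor of the pathway, had levels of 8.04 and 7.07 on slide 1 and of 6.92 and 6.69 on slide 2, in the IEL and the SPL sample in turn. The mean slide differences of the other genes were 1.11 for Nfkb2, 1.00 for Nfkbia, 0.77 for Relb, 0.75 for Tnfaip3 and 0.29 for Rela, while those of Nfkb1 (0.092) and the kinase gene Ikbkb (0.016) were close to 0. The other 3 Nfkb1 probes, which were dimmer, differed by 0.59, 0.45 and 0.38 between the slides, each with both slide 1 samples higher. For Nfkb2, Nfkbia, Relb and Tnfaip3, between 1.31% and 4.78% of the tested probes had a larger slide difference. Each slide held 1 sample of each group, and the labels do not say whether its samples also shared a sort or an extraction. This pattern was noticed in the values and has no test, and the count was 3 of 8 under the first normexp correction and between 5 and 7 under the other settings.

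**Figure D4:**
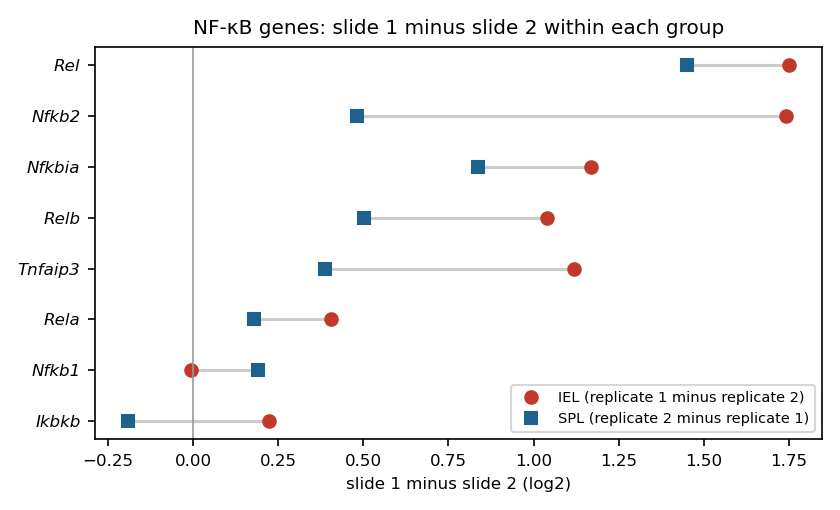
Slide 1 minus slide 2 (log2, horizontal axis) for the 5 NF-κB subunits and 3 regulators, within the IEL samples (circles) and within the SPL samples (squares), with a grey line joining the values of a gene. Both groups lie above 0 for 6 genes, with Rel at 1.75 and 1.45, and on different sides of 0 for Nfkb1 and Ikbkb.

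Several of these genes are known targets of NF-κB itself, and their promoters are shown for that reason. The RefSeq promoter table of GRCm38.p6 held 32 of the 40 genes, among them 5 of the 8 NF-κB genes. The κB motif of 10 bases (GGGRNNYYCC, where R is A or G, Y is C or T and N is any base) was searched on both strands in the 250 bases before each start site. Overlapping matches were counted separately. It occurred for 4 of those 5 genes and for 5 of the 27 other genes of the 40 with a promoter, against 8.23% of the 27025 genes in the table, counting a gene when any of its promoters held it. Several of these genes were known targets beforehand, and all 5 belonged to the slide pattern above, so the shares are no test of that pattern. The table listed 2 promoter windows for Tnfaip3 and 3 for Nfkb2, and for each gene the window with the most matches is shown. Capitals mark the matches in the promoters of Nfkbia (chr12:55492648-55492897, minus strand), Tnfaip3 (chr10:19015411-19015660, minus strand), Rel (chr11:23770970-23771219, minus strand) and Nfkb2 (chr19:46304487-46304736, plus strand), each written 5′ to 3′ and ending at the base before the start:
Nfkbia promoter: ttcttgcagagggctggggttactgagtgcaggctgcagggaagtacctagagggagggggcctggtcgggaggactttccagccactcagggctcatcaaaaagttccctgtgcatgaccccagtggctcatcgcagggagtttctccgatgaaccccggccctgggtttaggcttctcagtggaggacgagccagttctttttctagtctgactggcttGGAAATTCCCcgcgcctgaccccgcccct
Tnfaip3 promoter: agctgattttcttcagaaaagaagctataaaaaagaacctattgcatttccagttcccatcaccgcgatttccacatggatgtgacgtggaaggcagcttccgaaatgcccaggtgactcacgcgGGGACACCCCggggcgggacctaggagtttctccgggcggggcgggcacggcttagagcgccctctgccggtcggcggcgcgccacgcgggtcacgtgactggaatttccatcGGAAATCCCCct
Rel promoter: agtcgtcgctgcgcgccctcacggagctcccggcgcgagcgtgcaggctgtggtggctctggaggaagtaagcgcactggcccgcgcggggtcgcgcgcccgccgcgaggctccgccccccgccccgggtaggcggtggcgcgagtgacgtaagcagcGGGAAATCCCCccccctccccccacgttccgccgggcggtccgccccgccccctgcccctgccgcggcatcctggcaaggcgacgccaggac
Nfkb2 promoter: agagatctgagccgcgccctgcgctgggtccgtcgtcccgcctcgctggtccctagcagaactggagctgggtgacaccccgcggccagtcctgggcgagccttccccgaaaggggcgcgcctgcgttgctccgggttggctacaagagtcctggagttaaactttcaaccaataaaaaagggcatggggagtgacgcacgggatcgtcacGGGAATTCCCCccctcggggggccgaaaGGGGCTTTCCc
The Nfkbia match began 29 bases before the start, those of Tnfaip3 125 and 12 bases before it, the overlapping pair of Rel 92 and 91 bases before it, and those of Nfkb2 39, 38 and 11 bases before it. Rela, the fifth of these genes in the table, had no match in this window. A match describes the letters of the promoter and not a bound site.

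Other genes of the pathway, from lists of 88 genes of which 81 had probes, gave a similar picture. Of 75 tested, limma called 0 in either direction, 19 had both IEL samples above both SPL samples and 19 had them below, close to the shares of the array as a whole. In 10 of the 81 genes, different probes of the gene differed in direction. Those with the largest non-overlapping differences were sensors, caspases and NF-κB target genes. Nlrp6, an inflammasome sensor of the intestinal epithelium, had levels of -2.92 and -5.09 in IEL replicates 1 and 2 and of -5.78 and -5.89 in SPL replicates 1 and 2, a mean difference of 1.83 that turned to -0.86 under the first normexp correction. Casp4 encodes caspase-11, which detects intracellular lipopolysaccharide, and had levels of 3.35 and 1.76 against 0.73 and 0.075, a mean difference of 2.15.

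Of 17 tested NF-κB target genes, 6 had both IEL samples above both SPL samples and 6 had them below, against 24.4% and 24.6% of all tested probes. These target genes included chemokines that cytotoxic T cells make. Ccl4 had levels of 6.84 and 5.48 in IEL replicates 1 and 2 and of 4.57 and 3.31 in SPL replicates 1 and 2, with a mean difference of 2.22 and a standard error of 0.67. Ccl5 differed by 1.74, the survival gene Bcl2a1b by 1.79 and the stress-response gene Gadd45b by 1.84, all with both IEL samples higher (limma, adjusted p = 0.634 for each). The cytokine genes Il1a and Il6 had the opposite order. Il1a was not well above background in either IEL sample and passed the filter only through the SPL samples, so its order was close to fixed by the filter. Its levels were -7.53 and -8.01 in IEL replicates 1 and 2 and -5.90 and -5.30 in SPL replicates 1 and 2. Measured against the dimmest signals well above background on the IEL arrays, it was 1.17-fold lower in IELs, which is no strict limit. Its difference was 0.22 under normexp fitted without spots far below their local background. Il6 had levels of -7.13 and -5.52 in IEL replicates 1 and 2, the first not well above background, and of -5.17 and -3.29 in SPL replicates 1 and 2, a mean difference of -2.09 that was -0.049 under the same normexp setting. The 4 other target genes with both IEL samples lower were Il1b (-1.49) and the chemokine gene Cxcl2 (-1.24), as well as Cd83 (-1.5) and Ier3 (-1.26), and the other 2 with both higher were the chemokine gene Ccl3 (1.19) and the adhesion gene Icam1 (0.79), named after their values were seen. Casp4, Ccl4, Ccl5, Bcl2a1b and Gadd45b were all highest in IEL replicate 1, followed by IEL replicate 2, SPL replicate 1 and SPL replicate 2. The summed levels of the epithelial and of the Paneth cell markers had the same order. The part of epithelial RNA in these genes was not tested.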

How the data were processed

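RNA of 2 IEL and 2 SPL samples was measured on Agilent 1-color arrays with probe positions on mm9, although the methods name PrimeView chips. The deposited scanner intensity had its background subtracted within each array by the authors' software (Feature Extraction 10.7.3.1 per the file headers, 10.7.1.1 per the labels) and was not normalized between arrays. A table of log2 values deposited by the authors served as an alternative. Here, the log2 intensity was scaled by subtracting the 75th percentile of each array (312, 435, 479 and 605 units in IEL replicates 1 and 2 and SPL replicates 1 and 2), outlier-marked spots (98 to 179 per array) were dropped, and the spots of a probe were averaged. No spot was saturated. Precision is limited by the number of arrays.

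Probes that passed the background mark in all samples of a group (27937) were tested with limma 3.58.1 in R 4.3.3, without a block and two-sided, with Benjamini-Hochberg adjustment over all of them at 0.05. A gene was represented by its tested probe of highest mean signal. For some dim values, a fold was taken against the dimmest signal well above background on that array. Some probes without the mark were brighter than that signal, so such a fold is no strict lower limit. The labels do not say that the samples of a group came from separate pools, so p-values measure the spread between these samples. Over 27912 probes, deviations from the group means correlated at -0.025 between samples of the same replicate number and at 0.025 between samples of the same slide. With 2 samples per group these are the same value with its sign turned, so they cannot settle whether samples were paired. The genes and lists were chosen with earlier results of these data known. Every Toll-like receptor was named, and full statistics were given for genes with non-overlapping groups and at least a 2-fold difference, for Myd88, Nfkb1, Rela and Nfkbia, and for up to 8 other pathway genes by the same rule. The slide pattern was described after its values were seen. The fit was checked on simulated arrays with known changes, at the spread of these data and at a smaller spread. Recovery of the changed probes was required only at the smaller spread, so the check does not show what the test can find in these data.

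Alternatives were quantile normalization, another percentile base, normexp with an offset of 50 (also fitted without spots over 20 units below local background), the authors' log2 values, no filter or a stricter one, marked spots kept, a replicate or slide block, an intensity trend, the methods' test, the mean of a gene's probes, each sample left out, the more lenient detection mark and, added after seeing the data, each slide alone.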

Additional observations from a re-analysis of the deposited data

How the results depend on the processing

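With 2 arrays per group, signal over background limits the dim receptors and the sample number limits every test. With the replicate number as a block, limma again called 0 probes higher and 0 lower and 0 of the 37 genes, as it did with the slide as a block. No setting with all 4 arrays gave a call, and leaving out 1 sample in turn gave between 0 and 2390 probes higher, between 0 and 3066 lower, between 0 and 3 of the 37 genes higher, between 0 and 9 lower, and between 0 and 10 other pathway genes higher and between 0 and 11 lower, the upper ends without IEL replicate 2. The genes with both IEL arrays above both SPL arrays numbered 9 and 8 under the 2 normexp fits and between 8 and 13 with a sample left out, those below between 11 and 20, and the other pathway genes between 22 and 36 above and between 24 and 31 below, and 10 below under the first normexp fit. With a sample left out, 1 array is set against 2, so the rule itself separates groups more easily. Those counts cannot be compared with the counts over all 4 arrays. The shares of all probes under these settings are not given, so none of these counts describes the genes apart from the array as a whole.

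The median over all probes moved to -0.38 under normexp and to 0.153 under normexp without spots far below local background, so that relative to it the receptor median was -0.33 and -0.65 and that of the 37 genes 0.36 and -0.076. Not corrected for this shift, the median of the 37 genes was -0.021 and 0.077 under these fits, -0.048 with the stricter filter, -0.046 on slide 2 alone, and between -0.15 and -0.03 with a sample left out. For the adaptors it was -0.065 with quantile normalization, 0.17 and 0.11 under the normexp fits, -0.080 with the authors' values, -0.077 on slide 1 alone, and between -0.086 and -0.00038 with a sample left out. For the cytosolic sensors it was 0.26 under the second normexp fit and between -0.22 and 0.33 with a sample left out, and for NF-κB genes 0.59 for regulators and 0.53 for subunits under the first, with subunits between -0.21 and 0.83 with a sample left out. The receptor median of -1.17 lay between -2.30 (without IEL replicate 2) and -0.097 (without IEL replicate 1) with a sample left out.

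The count of 6 NF-κB genes higher on slide 1 was 3 under the first normexp fit. The difference of Myd88 turned to 0.35 under it, to between -0.086 and 0.067 with a sample left out (positive without IEL replicate 1) and to 0.057 on slide 2 alone, that of Nfkb1 to 0.21 and of Nlrp6 to -0.86 under it, that of Il1a to 0.22 under the second normexp fit, where that of Il6 was -0.049, and with a sample left out, Rela lay between -0.031 and 0.38 (negative without IEL replicate 1) and Nfkbia between -0.91 and 0.26 (positive without IEL replicate 2 or SPL replicate 2). The more lenient detection mark raised the detected receptors in IEL replicate 1 from 5 to 8. The causes of these moves were not tested.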
